A study of Homo sapiens with 4 samples.

Results

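The set described here holds 55 array probes whose signal was higher in both knockout lines of a human cell line than in both other lines. It was selected on the measured values themselves, from 22966 probes that were bright enough on all 4 arrays, out of 41000 probes in all. A probe was bright enough when it was marked well above background and had a processed signal of 50 or more on each array. Its level is the log2 processed signal minus the 75th percentile of its array. A probe belongs to the set when the lower of the Arp5 KO and Arp8 KO levels exceeded the higher of the other levels by more than 0.5 on the log2 scale, a difference called the gap below. *INO80*, *FOS*, *FOSB*, *JUN*, *EGR1* and *ATF3* were left out by the rule. The 55 members are 0.239% of the probes that passed the brightness filter. As the same values chose them, their gaps are a description and are given without a test.

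The cells were Nalm-6, an established human pre-B-cell leukemia line, grown without added hemin. Total RNA was labelled with Cy3 and hybridized to Agilent single-color arrays, 1 array for each genotype, so no difference has a replicate check, and precision is limited by the number of arrays. The wild-type (WT) cells carried no targeted gene. In the Arp5 KO cells, a single established line, both alleles of *ARP5* had been disrupted by homologous recombination, and the Arp8 KO cells had been made by gene targeting too. For the array labelled Arp8 overexpression, Arp8 was to be expressed in Arp8 KO cells from a Tet-Off promoter, which tetracycline silences. Whether tetracycline was given, and whether the cells of the Arp8 KO array carried that promoter too, is not stated in the sources used here. The arrays shared a slide and a scan. Each carries 43376 spots other than controls, of which 31188 were well above background for WT, 30803 for the array labelled Arp8 overexpression, 31420 for Arp5 KO and 30394 for Arp8 KO.

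Arp5 and Arp8 are actin-related proteins and subunits of the INO80 complex, which uses ATP to slide and reposition nucleosomes. Among the members are genes of negative feedback on cytokine receptors. There, a cytokine activates JAK kinases, these phosphorylate STAT factors such as STAT5, and the STAT factors switch on *CISH* and the SOCS genes, whose products bind the receptor or the kinase and dampen it. Early B cells depend on this route for their response to interleukin 7.

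The targeted genes were examined first. *ACTR5*, the gene of Arp5, had processed signals of 1909 in WT, 2088 on the array labelled Arp8 overexpression, 65.3 in Arp5 KO and 1849 in Arp8 KO. It was thus low on the Arp5 KO array alone, with a log2 difference of -4.85 from WT. *ACTR8*, the gene of Arp8, has 2 probes. The first gave 1092, 679, 993 and 785 in the same order, and the other gave 2149, 1857, 2233 and 1654. Both were lower on the Arp8 KO array than in WT, with differences of -0.49 and -0.40. On the array labelled Arp8 overexpression they were lower than in WT as well, with differences of -0.71 and -0.23. The signal of these probes therefore does not bear out the label of that array, and was only partly lower in Arp8 KO. Whether these probes lie inside the disrupted part of the gene, or match the introduced Arp8 sequence, was not examined. For this reason the signal on every array is given below for each gene, and differences from WT, which do not rest on the array labelled Arp8 overexpression, stand beside the larger gaps. Without that array, 439 probes exceeded WT by more than 0.5 in both KO lines. The 55 members are part of these.

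The label of the cells was examined with markers. All 10 genes of a B-lineage list passed the filter. They did not move together. *CD79A*, a B-cell receptor subunit gene, gave 18833, 27035, 12612 and 17443, and *CD22* gave 1821, 1173, 1074 and 537. *VPREB1* gave 37374, 42063, 33610 and 24832, and all of these were lowest in the KO lines. Only *DNTT*, with 27229, 21052, 30700 and 31757, was highest in the KO lines. The other genes of the list did not separate the KO lines from both others. The genes given with signals were chosen after their values had been seen. The summed signal of the list was 546621 in WT, 520727 on the array labelled Arp8 overexpression, 525415 in Arp5 KO and 512019 in Arp8 KO, but *IGLL1* alone made up 64.2% of the sum in WT, so that the sum says little about the other genes. Of 10 markers of T, myeloid, erythroid and stromal cells, 9 were measured and 1 passed the filter, the myeloid gene *CD14* at 119, 110, 124 and 123. Their summed signal was 297, 389.8, 291 and 389. *LYZ*, a further myeloid gene, gave 55.4, 140, 46.3 and 143. *CD3D* and *HBB* stayed under 5 units on every array. Other T-cell genes had some signal below the filter. *CD2* gave 31.7, 34.4, 26.9 and 28.9, and the brighter *CD3E* probe gave 44.9, 45.6, 47.7 and 46.4. Of the 9 markers measured, 5 were well above background on all 4 arrays. *LYZ* was high on both arrays of Arp8-targeted cells, which cuts across the KO lines, and *CD14* differed between the arrays by little. The part of these markers in the members' values was not tested.

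Across the 55 members the gap had a median of 0.59 on the log2 scale, or 1.51-fold, and a range from 0.50 to 1.69. In 44 of them it was at most 0.75, and in 4 it was above 1. Against WT alone, the median difference was 0.80 in Arp5 KO, with a range from 0.50 to 2.95, and 0.78 in Arp8 KO, with a range from 0.52 to 1.99. Levels more than 2-fold above WT were seen for 21 members in Arp5 KO and 16 in Arp8 KO, and for 12 in both. The KO arrays lay within 0.25 of each other for 34 members. Arp5 KO exceeded Arp8 KO by more than 0.5 for 9 members and Arp8 KO exceeded Arp5 KO by that much for 1.

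The array labelled Arp8 overexpression lay within 0.25 of WT for 36 of the 55 members and had a median difference of 0.01 from it. In bulk RNA, a higher level per cell and a larger share of cells with the transcript cannot be told apart. For comparison, 80 probes, or 0.348% of those that passed the filter, were lower in both KO lines than in both others by more than 0.5. With no minimum size, 18.2% of the probes that passed lay higher in both KO lines and 14.8% lay lower in both.

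Of the 55 members, 32 carry the name of 27 genes, and 23 could not be given a gene name from their accession. The named share was 58.2%, against 73.0% of the probes that passed the filter. *SOCS2*, *CISH*, *THRA*, *SIK1* and *MARCHF3* are each represented by 2 members. Signals below are given in the order WT, array labelled Arp8 overexpression, Arp5 KO and Arp8 KO.

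**Figure D1:**
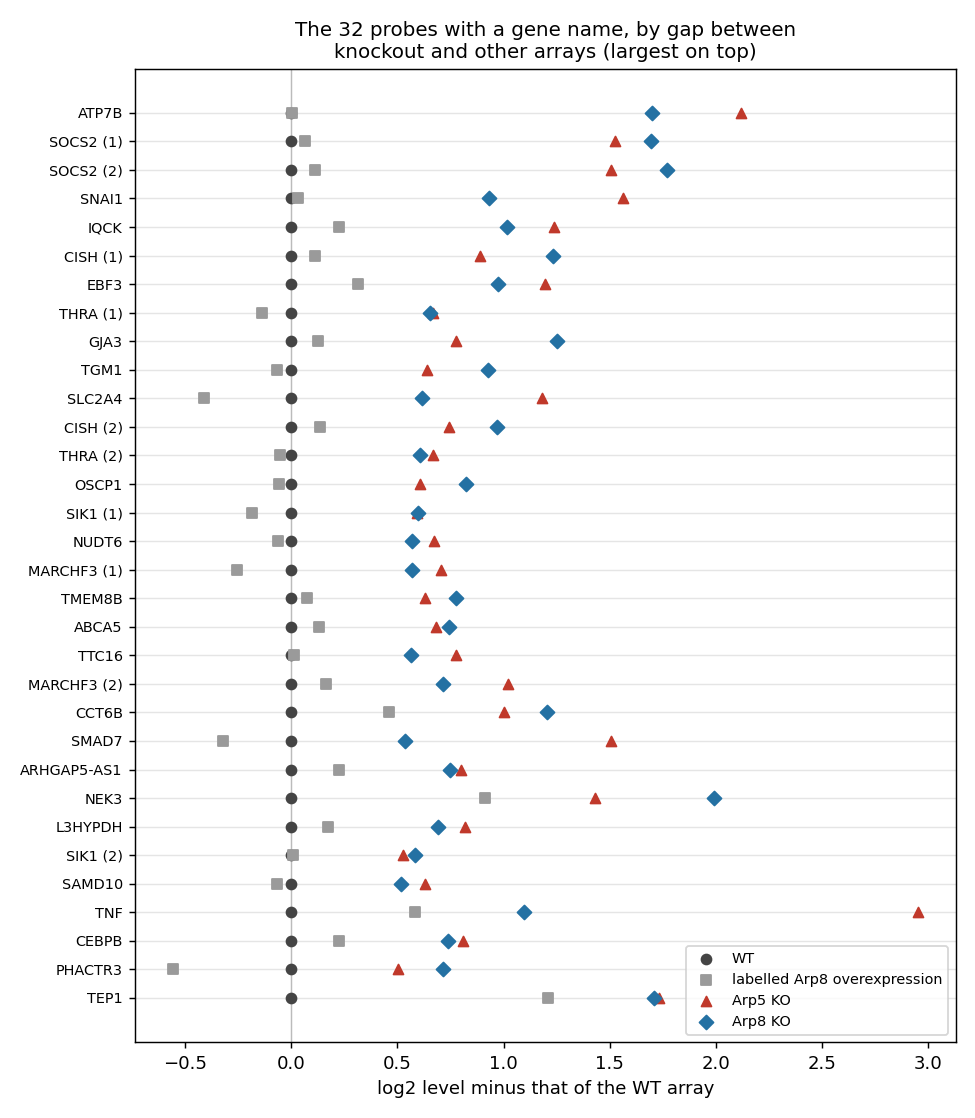
Log2 level of the 32 named member probes on each array, minus the level on the WT array (x axis), 1 probe per row, sorted by gap; symbols mark the arrays and numbers in brackets mark probes of the same gene. The KO symbols stand to the right of both others in every row, as the rule requires, and for *TEP1*, *NEK3* and *TNF* the array labelled Arp8 overexpression stands more than 0.5 to the right of WT.

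*SOCS2* and *CISH* are feedback regulators of cytokine signalling. *SOCS2*, which encodes a suppressor of cytokine signalling, had signals of 3977, 4372, 11112 and 13706 with one probe. Its other probe gave 412, 438, 1167 and 1348. Both probes placed WT and the array labelled Arp8 overexpression close together and both KO lines well above, with gaps of 1.39 and 1.46. Relative to WT, the first probe was 2.84-fold higher in Arp5 KO and 3.41-fold higher in Arp8 KO, and the other was 2.88-fold and 3.23-fold higher.

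*CISH*, which encodes a related inhibitor that binds activated cytokine receptors, gave 588, 647, 1072 and 1401 with one probe. The other probe gave 100, 112, 166 and 199. As with *SOCS2*, the Arp8 KO array was the highest with both probes, and the gaps were 0.77 and 0.61. The first probe exceeded WT by 0.89 in Arp5 KO and by 1.23 in Arp8 KO. Since members of this pathway stand together in the set, the promoter of *CISH* was read for the letters TTCNNNGAA, the palindrome that STAT dimers bind. This motif was chosen after the values had been seen. The stretch shown, from RefSeq on build GRCh38.p14, lies upstream of the gene at chr3:50611872-50612021 on the minus strand, with each match in capitals.
CISH: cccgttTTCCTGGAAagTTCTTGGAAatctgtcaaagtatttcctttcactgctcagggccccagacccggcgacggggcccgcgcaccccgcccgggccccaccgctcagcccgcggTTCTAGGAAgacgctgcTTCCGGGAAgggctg
It holds 4 matches, which begin 241, 230, 129 and 112 bases before the start of the transcript. The match at 112 bases shares letters with a match of the ETS motif CCGGAAG. At least 1 match of TTCNNNGAA was found for 8.53% of the genes that passed the filter and in 7.66% of 35116 promoters of the same length. It was found for 2 of the 19 member genes with a promoter in the table, a share near that of the genes that passed. *NUDT6* was the other gene with a match, 188 bases before its start. The promoters of *SOCS2*, *SNAI1*, *TGM1*, *SLC2A4*, *OSCP1*, *TTC16*, *SAMD10* and *PHACTR3* were not analysed here. A match is a description of the letters and not of binding.

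Of 20 genes of the JAK-STAT pathway in a list, 18 had 31 probes that passed the filter. The list, chosen with earlier results of these data known, held 4 member probes, all of *SOCS2* and *CISH*, or 12.9% against 0.239% of all probes. Both KO lines lay above both others for 8 of the 31 probes and below both for 4, which is 25.8% and 12.9%, against 18.2% and 14.8% of all probes. The 4 member probes lie above by the rule that picked them, and of the other 27 probes 4 lay above, or 14.8%, against 17.97% of all probes outside the set. The rest of the list thus lay above no more often than other probes. The median difference between the mean of the KO arrays and the mean of the others was 0.03 over the list and 0.02 over all probes. *SOCS1*, a suppressor that binds JAK kinases, ran the other way, with 531, 468, 257 and 347 for one of its probes and both KO lines lowest. The remaining SOCS genes that passed, *SOCS4*, *SOCS5*, *SOCS6* and *SOCS7*, had gaps from -0.15 to 0.14 and did not follow *SOCS2* and *CISH*. *PIM1*, a kinase gene that STAT5 also activates, gave 2131, 2181, 1724 and 1856, again lowest in the KO lines. *STAT5A* gave 233, 289, 267 and 315 with one of its probes, and *STAT5B* gave 507, 460, 497 and 418, so that neither separated KO from other arrays. The genes of the list other than *SOCS2* and *CISH* were chosen for naming after their values had been seen.

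**Figure D2:**
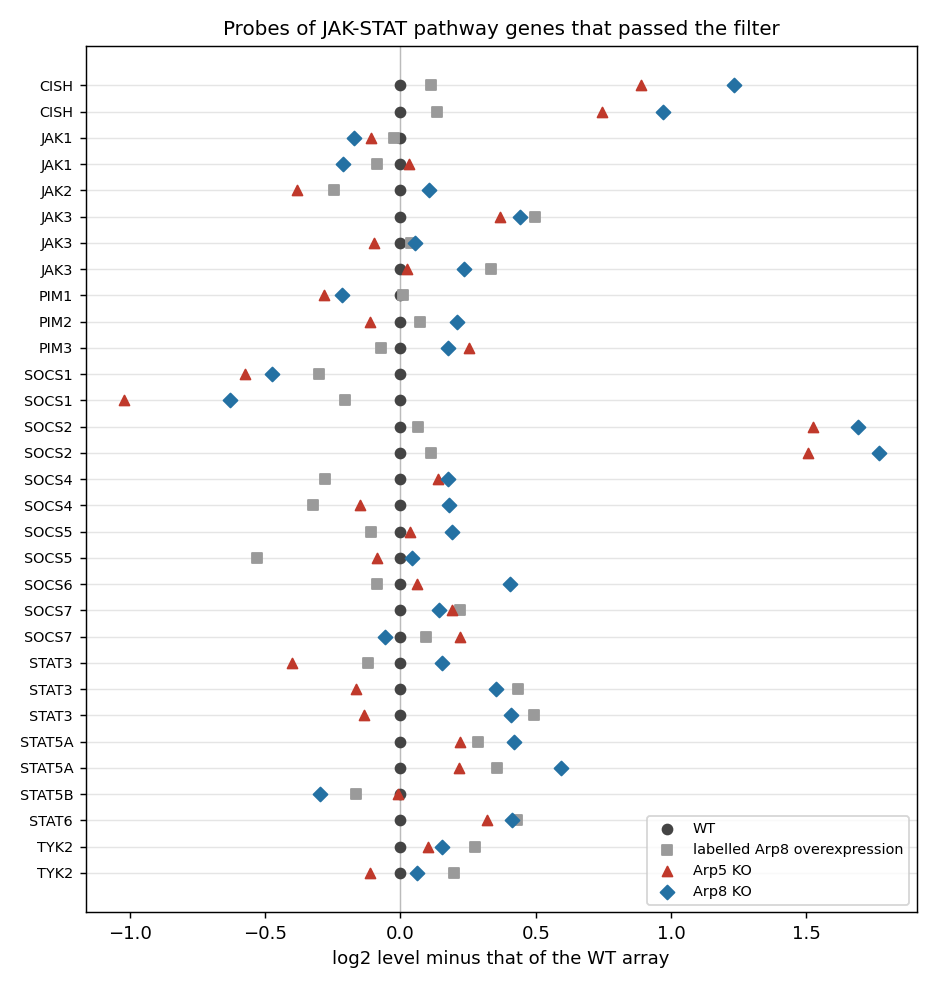
Log2 level minus that of the WT array (x axis) for the 31 probes of JAK-STAT pathway genes that passed the filter, 1 probe per row, with symbols for the 4 arrays. Both KO symbols stand far to the right for *SOCS2* and *CISH*, to the left for *SOCS1*, and near the other symbols for most of the remaining probes.

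Among other signalling genes, *SMAD7* encodes the inhibitory SMAD that blocks TGF-beta receptors. Its signals were 1061, 864, 2967 and 1559, with differences from WT of 1.51 for Arp5 KO and 0.54 for Arp8 KO. *TNF*, an inflammatory cytokine gene, gave 57.2, 87.1, 436 and 124. Here Arp5 KO stood far above every other array, by 2.95 over WT, whereas Arp8 KO passed the array labelled Arp8 overexpression by 0.51. A further *TNF* probe was below the filter, at 32.6, 35.9, 89.3 and 43.3, with the same order of arrays. *TNF* was the only member in a list of NF-kappaB factors and targets, of which 17 probes passed the filter. Both KO lines lay above both others in 7 of these 17 probes and below both in 2, or 41.2% and 11.8%, against 18.2% and 14.8% of all probes. The median difference was 0.16, against 0.02. Without the member, 6 of 16 lay above.

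*SIK1* encodes a salt-inducible kinase that restrains CREB coactivators. One of its member probes gave 234, 239, 332 and 354, and the other 71.5, 64.0, 106 and 110. A further probe for the gene, with 26430, 32469, 29181 and 32431, did not separate the lines, and its gap was -0.11. The genome holds a near-identical copy, *SIK1B*, so that the source of each signal is uncertain. The difference seen with the members was thus not seen with this probe.

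Transcription factor genes formed another group. *SNAI1*, a zinc-finger repressor of epithelial genes, had signals of 285, 296, 829 and 550, and differences from WT of 1.56 for Arp5 KO and 0.93 for Arp8 KO. *THRA*, the thyroid hormone receptor alpha, gave 2694, 2486, 4211 and 4288 with one probe and 248, 243, 388 and 382 with the other. These probes gave nearly the same differences from WT, 0.67 and 0.67 in Arp5 KO and 0.65 and 0.61 in Arp8 KO. *EBF3*, a relative of the B-cell factor EBF1, was dim, with 64.2, 81.0, 145 and 128. Its other probe that passed the filter gave 51.6, 63.9, 91.1 and 83.5, in the same order and with a gap of 0.39.

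*CEBPB*, a leucine-zipper factor of stress and inflammation, gave 129, 153, 222 and 217, a gap of 0.51. Its other probe gave 7630, 8245, 10007 and 9117, in the same order but with a gap of 0.15. *CEBPB* was the member in a list of ATF4 and unfolded protein response genes, where 17 of 45 probes lay above both others in the KO lines and 8 lay below. These are 37.8% and 17.8%, against 18.2% and 14.8% of all probes, and the median difference was 0.08. Without the member, 16 of 44 lay above. *MARCHF3*, a membrane-bound ubiquitin ligase gene, gave 1243, 1057, 1995 and 1863 with one probe. The other gave 66.0, 75.2, 132 and 110, so that the order of WT and the array labelled Arp8 overexpression differed between these probes.

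Genes of membrane transport included the member with the largest gap. *ATP7B*, the copper-exporting ATPase of Wilson disease, had signals of 349, 356, 1492 and 1148. WT and the array labelled Arp8 overexpression were nearly equal, and the differences from WT were 2.12 in Arp5 KO and 1.70 in Arp8 KO. *SLC2A4*, which encodes the insulin-regulated glucose transporter GLUT4, gave 89.5, 68.4, 200 and 139. Its other probe kept both KO lines higher, with 169, 149, 223 and 225 and a gap of 0.39.

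*ABCA5*, a lipid transporter gene, gave 342, 380, 541 and 579. With its other probe the signals were 101, 91.9, 133 and 144, a gap of 0.42. *GJA3*, a gap-junction connexin gene known from the lens, gave 483, 537, 815 and 1165. It was highest in Arp8 KO, at 1.25 over WT, against 0.78 in Arp5 KO. Its other probe was below the filter, at 12.4, 8.09, 12.5 and 17.5. There the gap was 0.04, and Arp5 KO exceeded WT by only 0.04.

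Enzyme and kinase genes made up a further group. *NEK3*, a kinase gene of the NIMA family, gave 271, 518, 719 and 1088. The array labelled Arp8 overexpression lay between WT and the KO lines here, 0.91 above WT. Its other probes, with gaps of 0.48 and 0.43, just missed the threshold and had the same order of arrays. *TEP1*, a telomerase-associated protein gene, behaved similarly with 62.9, 148, 206 and 208. The array labelled Arp8 overexpression was 1.21 above WT, so that most of the distance from WT was shared by the other 3 arrays. Another *TEP1* probe gave 2193, 2929, 2861 and 2744, with no separation of the KO lines.

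*TGM1*, which encodes the transglutaminase of the skin barrier, gave 222, 216, 340 and 427. *NUDT6*, a gene of the Nudix hydrolase family that overlaps *FGF2* in antisense, gave 2005, 1954, 3144 and 3011, with both KO lines close together. *L3HYPDH*, which encodes a hydroxyproline dehydratase, gave 202, 232, 351 and 331. *PHACTR3*, a phosphatase and actin regulator gene, gave 411, 284, 574 and 683, and its gap of 0.50 was set by WT and Arp5 KO.

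The remaining named members share no well-known role. *IQCK*, which encodes a calmodulin-binding motif protein, gave 1139, 1352, 2641 and 2332, with differences from WT of 1.24 and 1.02. *CCT6B*, a testis form of a chaperonin subunit, gave 157, 219, 309 and 365. *OSCP1* gave 206, 201, 309 and 368. These 3 genes had gaps of 0.79, 0.54 and 0.61. *TMEM8B* gave 173, 186, 264 and 300, and its other probe, at 629, 682, 793 and 1036, kept the order with a gap of 0.26.

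*TTC16* gave 153, 157, 259 and 230, and *SAMD10* gave 275, 266, 418 and 398. *ARHGAP5-AS1*, a noncoding transcript antisense to *ARHGAP5*, gave 345, 409, 590 and 586. For these last genes the KO arrays lay close to each other.

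Among the 23 members without a gene name, 12 have no accession in the files either. The largest gap, 1.64, belonged to the probe A_32_P112712 with signals of 73.2, 85.3, 266 and 264, second to *ATP7B* in the whole set. The probe A_32_P134634 is named for its spread, with 11435, 3743, 18408 and 17387. There, the array labelled Arp8 overexpression differed from WT by -1.63 on the log2 scale, whereas the KO lines exceeded WT by 0.71 and 0.59. These probes were named after their values had been seen.

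**Figure D3:**
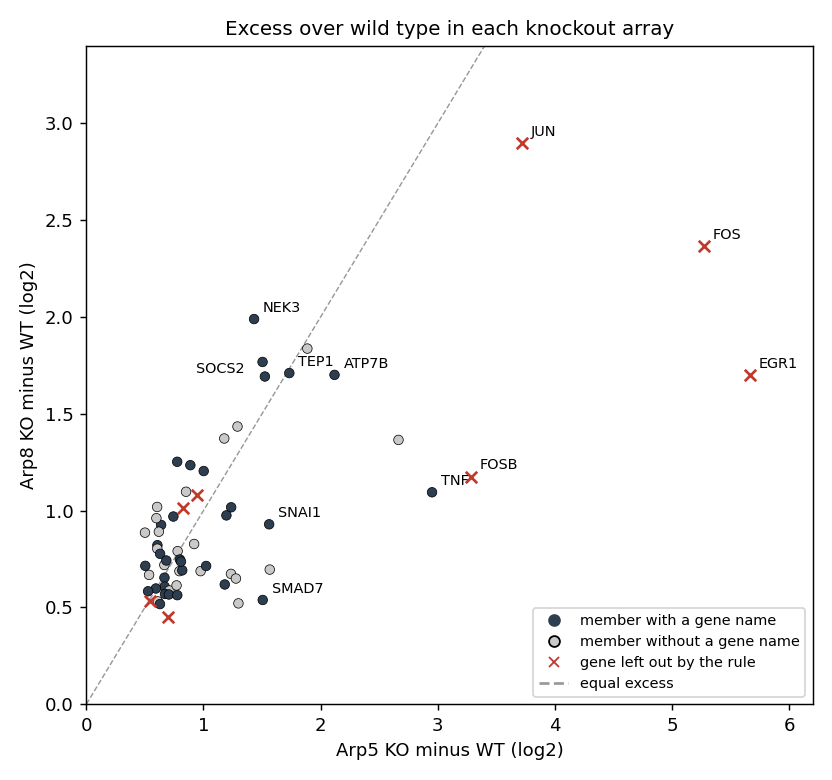
Difference from WT in Arp5 KO (x axis) and Arp8 KO (y axis), both log2, for the 55 members (dark points with a gene name, grey without) and for the probes of the 6 genes left out by the rule (crosses). Most members lie near the dashed line of equal difference, whereas *TNF* at 2.95 and 1.09 and the crosses of *EGR1*, *FOS* and *FOSB* lie far on the side of Arp5 KO.

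The 6 genes left out by the rule have 8 probes, of which 6 would otherwise have met it. *JUN*, an AP-1 subunit, had signals of 885, 1533, 11463 and 6681 and a gap of 2.13, above that of any member. *FOS*, its partner, gave 58.7, 111, 2237 and 306, and *EGR1*, an immediate early zinc-finger gene, gave 85.2, 119, 4249 and 280. Both were highest in Arp5 KO by a wide margin. *FOSB* gave 36.2, 54.5, 347 and 82.8, so that its WT signal was below the filter.

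*ATF3*, a stress-induced factor gene, gave 1469, 1391, 2106 and 2150 with a gap of 0.53, and its other probe had a gap of 0.45. *INO80*, the ATPase subunit of the complex itself, gave 6900, 8070, 12004 and 14102 with one probe and 877, 1124, 1658 and 1876 with the other. Its gaps were 0.62 and 0.61, near the median of the members.

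Further immediate early genes, in a list without the left-out genes, contributed no member among 39 probes of 24 genes. Both KO lines lay above both others for 19 of these probes, or 48.7%, and below both for 3, or 7.69%, against 18.2% and 14.8% of all probes. The median difference was 0.37, against 0.02 over all probes. The KO arrays differed from each other in this list. The Arp5 KO array exceeded WT by a median of 0.36 and the Arp8 KO array by 0.16, against 0.04 and 0.02 over all probes. Arp5 KO lay above Arp8 KO for 27 of the 39 probes, or 69.2%, against 51.9% of all probes. *KLF2* exceeded WT by 2.35 in Arp5 KO and 0.20 in Arp8 KO with one of its probes. With its other probe the order was reversed, at 0.26 and 0.84. *SGK1* exceeded WT by 1.25 in Arp5 KO and 0.19 in Arp8 KO. Both genes were named after their values had been seen. In a list of feedback genes of MAP kinase signalling the KO lines lay above for 8 of 16 probes, or 50%, and below for 0. The median difference was 0.20, but over WT alone the medians were only 0.08 in Arp5 KO and 0.12 in Arp8 KO. In a longer B-lineage list the KO lines lay above for 1 of 44 probes, or 2.27%, and below for 13, or 29.5%, with a median difference of -0.12. A high share above was not particular to these lists. It was 54.8% of 93 probes for symbols that start with RPS and 37.4% of 139 for those that start with RPL, with median differences of 0.08 and 0.05.

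Members were found in 3 of 23 gene lists, those of JAK-STAT, NF-kappaB and ATF4 genes, and 23 of the 27 named member genes were in no list. The shares that follow stand against 18.2% above and 14.8% below over all probes. Replication-dependent histone genes had no member, and 14 of 62 probes (22.6%) lay above and 2 (3.23%) below, with a median difference of 0.47. Arp5 KO was above Arp8 KO for 60 of the 62, or 96.8%, against 51.9% of all probes. The medians over WT were 0.28 in Arp5 KO and -0.11 in Arp8 KO. The difference of 0.47 also counts the array labelled Arp8 overexpression, and is not a rise over WT shared by both KO lines. Target genes of p53 had none either, with 5 of 37 (13.5%) above, 1 (2.70%) below and a median difference of 0.23. Here the medians over WT were 0.06 in Arp5 KO and 0.65 in Arp8 KO. Interferon-stimulated genes lay above for 1 of 38 probes (2.63%) and below for 14 (36.8%). Heat shock protein genes lay above for 3 of 40 (7.5%) and below for 17 (42.5%). The 15 listed subunits of the INO80 complex, a list with *ACTR5* and *ACTR8* but without *INO80*, lay above for 1 of 21 probes (4.76%) and below for 4 (19.0%).

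**Figure D4:**
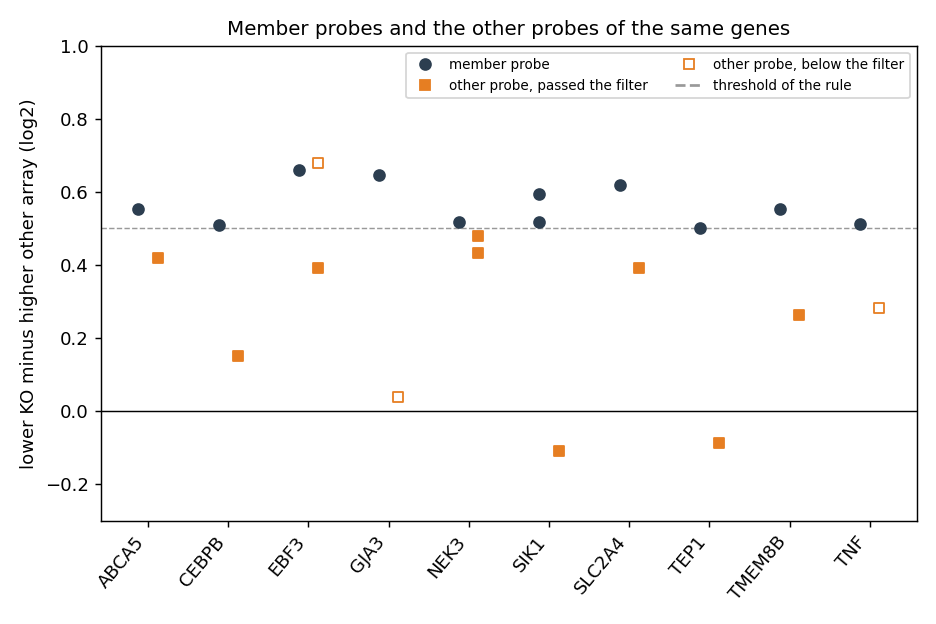
Gap, the lower KO level minus the higher level of the other arrays (y axis, log2), for member probes (circles) and for the other probes of the same 10 genes (squares, open where below the filter). The dashed line marks the threshold of 0.5. Of 9 filled squares, 7 lie above 0 and those of *SIK1* and *TEP1* lie below it.

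The other probes of member genes were not chosen by the rule, although they share its arrays. There were 12 of them for 10 genes, of which 9 passed the filter. Both KO lines lay above both others for 7 of these 9, against 18.2% of all probes, and the gap exceeded 0.25 for 6. Their median gap was 0.39, whereas over all probes that passed the filter it was -0.18. The exceptions were the probes of *SIK1* and *TEP1* given above. Probes of one gene share its RNA, so that this is a check on the probe and not on the cells.

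Repeated spots and the software's own error give the technical precision. Between 145 and 152 repeated probes per array with signals of 500 or more had a median SD of 0.04 to 0.05 on the log2 scale. For 35 to 40 repeated probes between 50 and 500, it was 0.06 to 0.08. The software's error was larger, with a median of 0.20 for a gap of a member, and 22 of the 55 gaps exceeded 3 times it. Neither error holds any variation between cultures. Every member was measured with 1 spot per array.

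Dim probes were common in the set. The lowest of the signals of a member had a median of 237, against 1134 for all probes that passed, and was under 100 for 15 of 55 members, or 27.3%, against 9.94%. At the threshold, the genes just inside were *TEP1* and *PHACTR3* with gaps of 0.50, *CEBPB* and *TNF* with 0.51, and *SAMD10* with 0.52. Just outside were *NABP1*, *PIGZ*, *RHPN1* and *NDUFAF6* with gaps of 0.49, and *TMTC3* with 0.48. The difference between these groups is much smaller than the software's error.

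Promoters of 250 bases before to 50 bases after the start were in the RefSeq table for 19 of the 27 member genes. TGACGTC, 7 of the letters of the palindromic cyclic AMP response element, was found on either strand in 3 of them, or 15.8%, against 6.79% of the genes that passed the filter and 3.45% of all promoters. The matches of *EBF3* at chr10:129964321-129964347 and *SIK1* at chr21:43427243-43427269, both upstream on the minus strand of GRCh38.p14, are shown because *SIK1* acts on the CREB pathway that uses this element. Capitals mark the motif as it reads on the opposite strand.
EBF3: accgccccccGACGTCAccctctgaca
SIK1: gcgtcaaagcGACGTCAatgggcggcc
The matches begin 63 and 128 bases before the start. That of *SIK1* shares letters with a match of TGACNNNGC, the core of the antioxidant response element. The match in *TMEM8B* begins 5 bases after the start. The full palindrome TGACGTCA was in 0 of the 19 promoters, against 3.90% of the genes that passed and 1.85% of all promoters.

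The AP-1 motif TGANTCA was in 3 of 19 promoters, those of *ABCA5*, *ATP7B* and *L3HYPDH*, or 15.8%, against 6.33% of the genes that passed and 7.71% of all promoters. TATAAA was found in *CEBPB*, *SMAD7* and *TNF*, which is 15.8%, against 8.40% of the genes that passed and 11.5% of all promoters. The GC box GGGCGG was in 17 promoters, or 89.5%, against 76.6% of the genes that passed and 45.0% of all promoters. TGACNNNGC was in 6, or 31.6%, against 19.8% of the genes that passed and 13.3% of all promoters. The ETS motif CCGGAAG and the letters CCAAT were in 5 each, or 26.3%, against 23.3% and 44.0% of the genes that passed and 10.3% and 34.6% of all promoters. TTTCNNTTT, of interferon response elements, was in 2, against 9.99% of the genes that passed. CACGTG, the E-box, AANATGGC, bound by YY1, GCGCNTGCG, bound by NRF1, and the CArG box were in 1 each, or 5.26%. Among the genes that passed they were in 12.9%, 13.05%, 17.9% and 1.52%, and among all promoters in 7.26%, 6.58%, 7.47% and 1.29%. TGATGNAA, an ATF4 composite site, was in 0, against 2.59% of the genes that passed and 3.62% of all promoters. Both strands were read for each motif. With so few promoters, 1 gene more or less moves these shares by several percentage points, and none was tested.

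The 27 genes lay on 15 chromosomes. Chromosomes 14, 17 and 20 held 4 each, or 14.8%, and chromosome 13 held 3, or 11.1%. Of the genes that passed the filter, 3.37%, 6.39%, 2.85% and 1.74% lay there. Chromosome 1 held 1, or 3.70%, against 10.2% of the genes that passed. Chromosomes 2, 11 and 19 held 0, against 6.48%, 5.72% and 7.55%. These chromosomes were named after their counts had been seen. No members were direct neighbours among the genes that passed. *SNAI1* and *CEBPB* on chromosome 20 had 1 such gene between them, *UBE2V1*, whose 4 probes had gaps from -0.24 to -0.18, and so were not raised with the genes beside them.

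*ATP7B* and *NEK3* on chromosome 13 had 2 genes between them, *ALG11* and *UTP14C*. *UTP14C* gave 1441, 1300, 678 and 761, and *ALG11* gave 1010, 1548, 700 and 831, so that both were lower in both KO lines while the genes on either side were higher. Beyond *NEK3*, *THSD1* gave 2417, 3135, 3639 and 4528, with both KO lines above both others. Beyond *ATP7B*, *DHRS12* gave 449, 351, 472 and 354 without a separation. These neighbours were chosen for naming after their values had been seen. Over all 53 nearest neighbours of member genes, both KO lines lay above both others for 16 of 71 probes, or 22.5%, against 18.2% of all probes.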

How the data were processed

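The authors deposited the scanner output of each array, made with Agilent Feature Extraction 10.5.1.1, with a linear intensity for every spot, the processed signal, from which the software had subtracted background without scaling the arrays to each other. A table of intensities was deposited too. It was found to equal the processed signal times 1 factor per array, of 0.847 for WT, 0.807 for the array labelled Arp8 overexpression, 0.838 for Arp5 KO and 0.825 for Arp8 KO, with column medians of 127, 119, 128 and 122.5. Its scale is thus linear, and how the factors were set stays unknown. Here, control spots and outlier spots were left out, the 75th percentile of each array was subtracted from its log2 processed signals, and spots of a probe were averaged. No spot was saturated. Genes were named through accessions and the gene table of GRCh38.p14, which matched 26217 of 41000 probes (63.9%). The file headers name build hg18, so that table served for names and neighbours only.

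The text names the 25 member genes with the largest gap, members in a list or with 2 member probes, the 5 genes on each side of the threshold, *ACTR5*, *ACTR8* and the left-out genes, besides those said to be chosen later. Members and the 23 lists were chosen with earlier results of these data known. The alternative with normexp used the median signal, because no mean signal was in the columns used, and was run in limma 3.58.1 (R 4.3.3) with 50 as its offset. Python 3.11.15 served for the rest, with numpy 2.4.6, pandas 2.3.3 and matplotlib 3.10.9. A few marker genes are not reported here and were left out of the marker counts and sums. With 1 array per group there was no test.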

Additional observations from a re-analysis of the deposited data

How the results depend on the processing

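The set of 55 probes and 27 genes stayed within 1.5 times these counts with median scaling, the percentile over detected spots, quantile normalization, no scaling, the deposited table, outlier spots kept, a minimum of 25 or 100, and the filter applied to the KO arrays only, at 40 to 75 probes and 19 to 35 genes. It was 24 probes and 13 genes with normexp, where 22 of the 24 were members, and 103 probes and 47 genes with no signal minimum. A gap over 0.25 gave 433 probes and 246 genes, over 0.75 gave 11 and 5, and over 1 gave 4 and 2, which follows from the threshold itself. Leaving out 1 array in turn, an alternative chosen after seeing the data, left between 268 and 524 probes and between 162 and 254 genes, as fewer arrays had to be passed. The cause of the change with normexp was not tested. Probes higher in both KO lines were 40.7% of those separated by more than 0.5 in either direction, but 30.4% with median scaling (42 against 96) and 30.4% with normexp (24 against 55).

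The gaps of the 27 named genes stayed above 0 under the 6 alternatives of scaling, table and background, with a lowest value of 0.27. They stayed above 0.5 for 18 genes with median scaling, 26 with the percentile over detected spots, 19 with quantile normalization, 23 with no scaling, 25 with the deposited table and 11 with normexp. The 11 genes with normexp were *ATP7B*, *SOCS2*, *SNAI1*, *IQCK*, *CISH*, *THRA*, *GJA3*, *TGM1*, *NUDT6*, *MARCHF3* and *SMAD7*. There, the gaps of *EBF3*, *SLC2A4*, *OSCP1*, *SIK1*, *TTC16*, *ARHGAP5-AS1*, *L3HYPDH*, *TNF*, *CEBPB* and *TEP1* fell to between 0.27 and 0.38. Alternatives with 1 factor per array move all genes together, and keeping outlier spots could not move members with 1 spot. The median over all probes shifted by less than 0.1 under each scaling. No paired analysis was possible because each group has 1 array. Signal over background limits the dim members, and the only partly lower signal of the *ACTR8* probes limits what the Arp8 labels can be taken to mean.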
